A study of Mus musculus with 119 samples.

Results

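Calcium entering a dendritic spine binds calmodulin, and 9 genes that act on this signal during synaptic potentiation were followed through bulk RNA sequencing of 5 mouse brain regions. They were chosen by name: Camk2a, Camk2b, Camk2d, Camk2g, Camk4, Ppp3ca, Prkca, Prkcb and Nrgn. The files list 55291 genes, all 9 were found, and all 9 passed the filter on low counts in every comparison.

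Calcium-calmodulin kinase II (CaMKII) is a holoenzyme built of alpha, beta, gamma and delta subunits, and autophosphorylation keeps it active after the calcium signal has ended, a step needed for long-term potentiation at excitatory synapses. Camk4 encodes a kinase that acts in the nucleus on the transcription factor CREB, while Ppp3ca encodes the catalytic alpha subunit of calcineurin, the calcium-activated phosphatase that opposes the kinases and takes part in synaptic depression. Prkca and Prkcb encode the conventional protein kinases C alpha and beta, which need calcium and diacylglycerol, and Nrgn encodes neurogranin, a small protein of spines that holds calmodulin while calcium is low.

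The study gave Δ9-tetrahydrocannabinol (THC), the main psychoactive compound of cannabis, or vehicle to female and male mice. It then profiled RNA in brain regions that it links to cognition and addiction. THC was given intraperitoneally at 10 mg/kg, as 1 injection a day, 21 in all, between postnatal days (PND) 28 and 48, and behaviour was tested from PND 63, before the brains were taken. The labels give the strain as C57BL/6J and the age as 11 weeks, while the paper names C57BL/6NCrl mice of a slightly higher age, and neither was checked in the counts. RNA came from tissue punches of prefrontal cortex (PFC), dorsal striatum (DMS in the sample names, dorsolateral in the tissue label and dorsal medial in the paper), amygdala (Amy), ventral tegmental area (VTA) and nucleus accumbens (NAc).

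There were 119 libraries in 20 groups of region, sex and treatment, with 6 libraries in each group except male VTA vehicle, which had 5. The counts came in 2 tables. The table with PFC and DMS held 48 libraries of 17.8 M to 25.5 M counts (M, mega), and the table with NAc, Amy and VTA held 71 libraries of 3.09 M to 77.0 M counts, so a difference between a region of the first table and a region of the other includes any difference between the tables. Depth also moved with treatment in Amy: the median was 26.9 M counts in female vehicle libraries and 44.5 M in female THC libraries, against 28.4 M and 12.8 M in males. By the paper's methods each mouse gave several regions, but no mouse identity is in the labels, so libraries were not linked across regions. The tests between regions treat all libraries as independent, and their SEs and FDRs do not account for shared mice.

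In 117 of 119 libraries the level of Xist and the summed level of Y-linked genes matched the labelled sex (59 female, 58 male). The exceptions were both Amy THC libraries. Female Amy THC replicate 6 had 139 CPM (counts per M counts of the library, scaled) of Y-linked genes and 0.293 CPM of Xist, and male Amy THC replicate 6 had 488 CPM of Xist and 0.371 CPM of Y-linked genes. Both stayed in their labelled groups. The THC effects on Camk2a and Prkcb, the interaction and the sex counts in Amy are also given without them, while the marker values, pathway calls and subunit shares of Amy are given only with them. In each region 1 male vehicle library held 67.5 to 96.5 CPM of Y-linked genes, where the other male vehicle libraries held 133 to 181 CPM; whether these 5 libraries came from the same mouse was not tested.

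Marker genes followed the labelled regions. The summed level of 10 markers of cortical and basolateral projection neurons, of which Slc17a7 was the most abundant in PFC, averaged 2725 CPM in PFC, 856 CPM in Amy and 43.7 to 122 CPM in the other regions. The 11 markers of medium spiny and central amygdala neurons summed to 12109 CPM in DMS, 5095 CPM in NAc and 1174 CPM in Amy. The 10 dopaminergic markers reached 4377 CPM in VTA and 43.5 to 81.4 CPM elsewhere, and the 8 oligodendrocyte markers were highest in VTA, at 15579 CPM.

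Per kilobase of the longest coding transcript, several of the 9 genes were among the most abundant in the brain. Nrgn stood at rank 23 of 53292 genes in PFC vehicle libraries (1049 CPM per kilobase), and Camk2a at rank 51 (581 CPM per kilobase). In DMS, Nrgn stood at rank 39 (704 CPM per kilobase), Ppp3ca at rank 45 (624 CPM per kilobase) and Camk2b at rank 80 (398 CPM per kilobase). At the other end, Camk4 in VTA stood at rank 9267 (4.37 CPM per kilobase), so the genes differed widely in level on this scale.

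**Figure D1:**
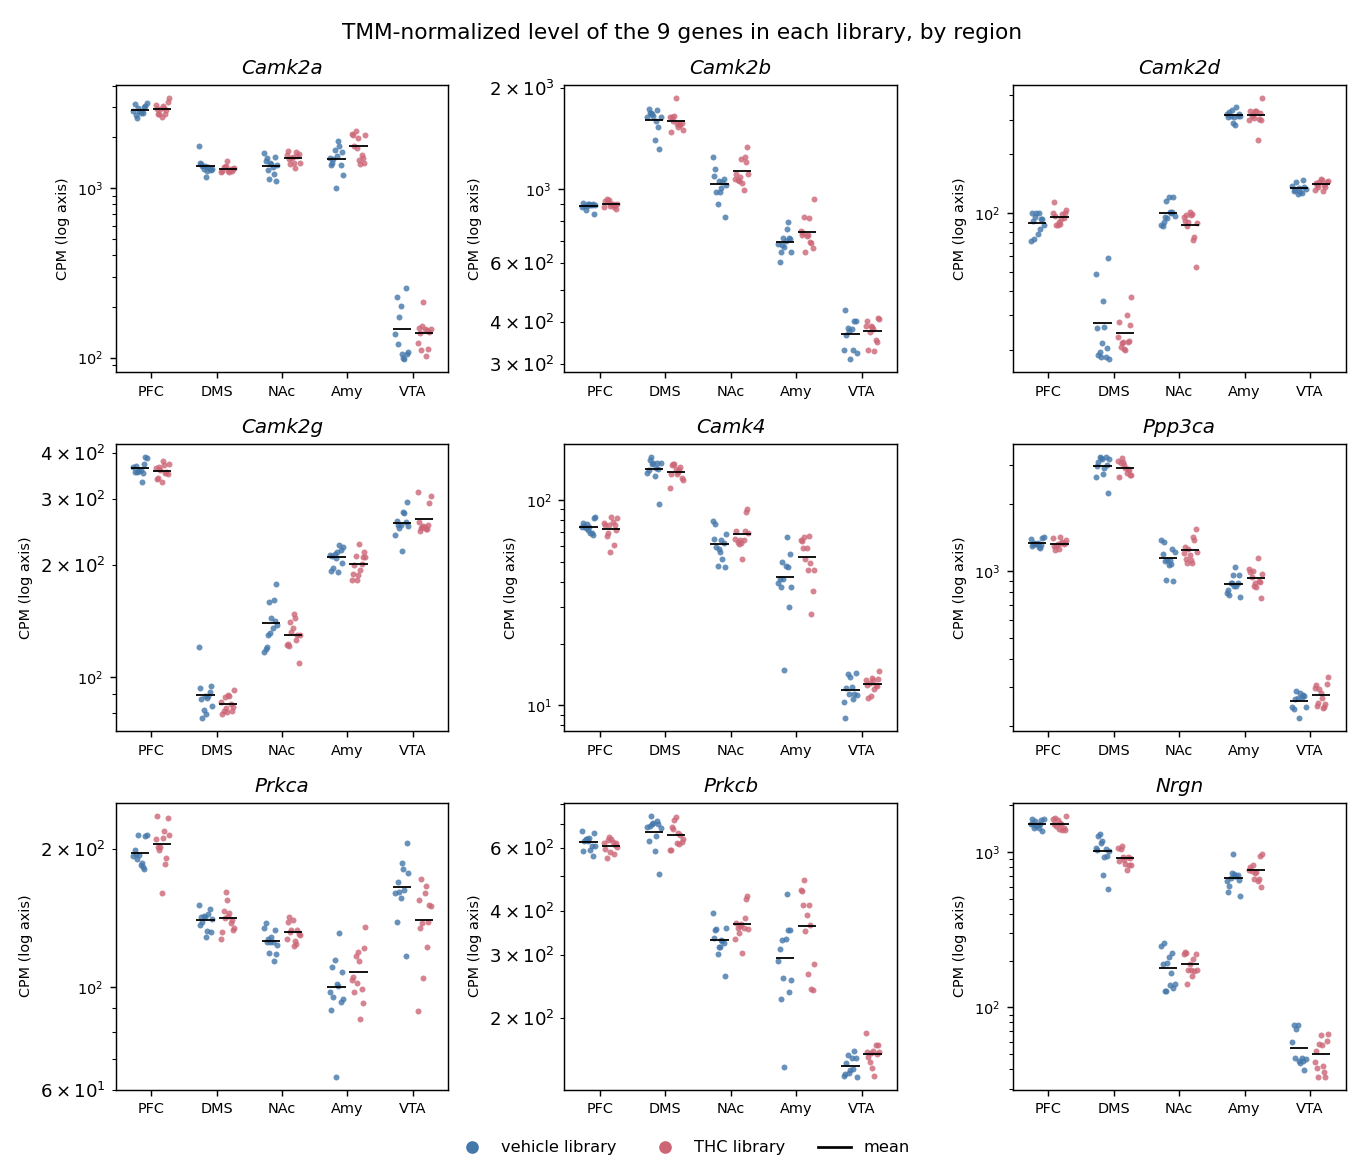
Level of each of the 9 genes in all 119 libraries, in CPM scaled by TMM (trimmed mean of M values) on a log axis, by region, with vehicle in blue, THC in red and the group mean in black. Vehicle means of Camk2a, Camk2g, Prkca and Nrgn were highest in PFC, those of Camk2b, Camk4, Ppp3ca and Prkcb in DMS and that of Camk2d in Amy. Prkcb was not told apart between DMS and PFC, and Prkca in PFC and VTA did not pass the threshold. In VTA 7 of the 9 genes were called lower than in PFC.

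Levels in the vehicle libraries (n = 12, or 11 in VTA) give the map of each gene without drug. Camk2a, the alpha subunit that dominates CaMKII in forebrain excitatory neurons, averaged 2887 ± 176 CPM (SD) in PFC, 1486 ± 244 in Amy, 1357 ± 157 in NAc, 1348 ± 149 in DMS and 148 ± 57.0 in VTA. The PFC libraries ran from 2577 to 3162 CPM (median 2848) and the VTA libraries from 97.9 to 256 CPM (median 120.5), with no overlap between VTA and any other region. The 3 middle regions overlapped, and neither of their neighbouring pairs differed by the test (Amy against NAc log2 fold change 0.10, false discovery rate (FDR) 0.451, NAc against DMS -0.00, FDR 0.999). The mean in PFC was 19.5 times the mean in VTA.

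Camk2b, the beta subunit that binds actin and ties the holoenzyme to the cytoskeleton of the spine, had a different order. It averaged 1602 ± 129 CPM in DMS, 1030.0 ± 110 in NAc, 888 ± 18.8 in PFC, 693 ± 51.2 in Amy and 368 ± 39.6 in VTA, a range of 4.36-fold. NAc and PFC (0.23 on the log2 scale) and PFC and Amy (-0.38 for Amy against PFC) did not pass the threshold of 0.4.

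Camk2d, the delta subunit that is widespread outside the brain, was highest in Amy at 316 ± 18.4 CPM, followed by VTA at 134 ± 7.06, NAc at 100.4 ± 12.3, PFC at 88.9 ± 10.2 and DMS at 27.5 ± 13.4. The Amy libraries held 282 to 348 CPM (median 315) and the DMS libraries 17.9 to 58.98 CPM (median 20.98). Amy exceeded DMS by 3.48 on the log2 scale (SE 0.13) and every Amy vehicle library was above every vehicle library of the other regions. NAc and PFC were not told apart (0.18, FDR 0.151).

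Camk2g, the gamma subunit, averaged 363 ± 15.6 CPM in PFC, 259 ± 20.3 in VTA, 209 ± 11.6 in Amy, 139 ± 18.6 in NAc and 89.4 ± 11.0 in DMS. It was the only CaMKII gene whose VTA mean stood above those of Amy, NAc and DMS, although VTA and Amy differed by 0.34 on the log2 scale, under the threshold. DMS was lower than PFC by a log2 fold change of -2.00 (SE 0.05).

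These orders change the subunit mix that the RNA could supply. As shares of the 4 CaMKII genes, per kilobase of the longest coding transcript, Camk2a held 63.4 ± 1.21% in PFC (SD, n = 12), 50.8 ± 3.66% in Amy, 46.6 ± 1.69% in NAc, 38.8 ± 2.10% in DMS and 13.6 ± 3.99% in VTA (n = 11). Camk2b held 24.1% in PFC and 57.0% in DMS, and in VTA Camk2b (42.4%) and Camk2g (32.6%) made up most of the sum. Camk2d rose from 0.722% in DMS to 9.85% in Amy and 11.4% in VTA. With the length of all exons joined in place of the longest transcript, the leading gene was Camk2a (48.6%) rather than Camk2b (47.3%) in DMS and Camk2g (38.2%) rather than Camk2b (37.9%) in VTA, and Camk2d held 0.333% in DMS, 4.41% in Amy and 5.65% in VTA, so these orders and the size of the Camk2d shares depend on the length used.

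**Figure D2:**
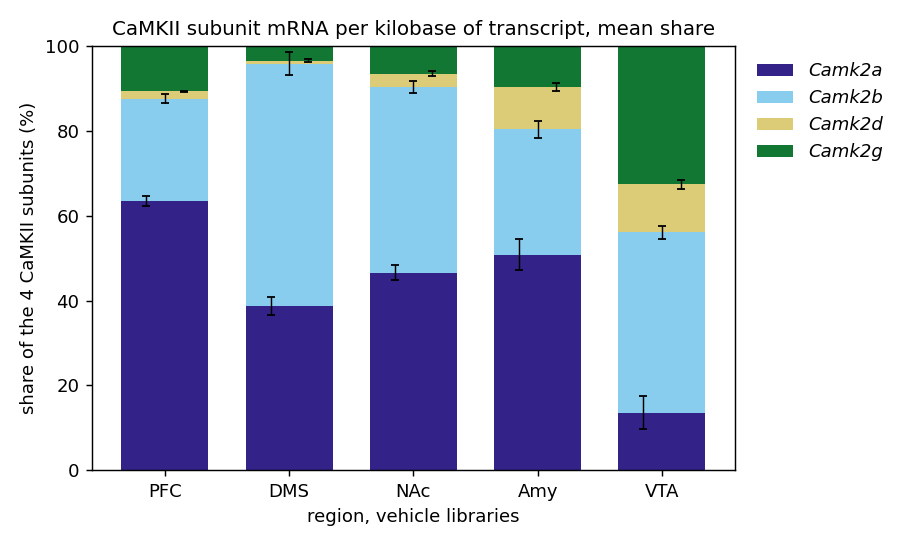
Mean share of the 4 CaMKII genes in vehicle libraries of each region, in percent of their summed CPM per kilobase of longest coding transcript; bars with the standard deviation over libraries for Camk2a, Camk2b and Camk2d. Camk2a made up 63.4% in PFC and 13.6% in VTA, and Camk2b 57.0% in DMS.

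Camk4 was highest in DMS at 142 ± 17.3 CPM, then 74.1 ± 4.72 in PFC, 61.1 ± 10.2 in NAc, 42.4 ± 12.8 in Amy and 11.9 ± 1.74 in VTA. PFC and NAc did not pass the threshold (-0.26 for NAc against PFC), and VTA was lower than DMS by a log2 fold change of -3.59 (SE 0.13). Ppp3ca had the same leading region, with 2969.8 ± 305 CPM in DMS, 1331 ± 48.5 in PFC, 1138 ± 148 in NAc, 872 ± 82.0 in Amy and 260.0 ± 21.7 in VTA. Its DMS libraries ran from 2250.1 to 3261 CPM (median 3031), above every vehicle library elsewhere, and PFC and NAc again did not pass the threshold (-0.21).

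The protein kinase C genes differed in how much they varied. Prkca kept within 1.95-fold, from 195 ± 12.3 CPM in PFC over 165 ± 23.6 in VTA, 139.9 ± 6.66 in DMS and 126 ± 6.96 in NAc to 100.1 ± 16.3 in Amy, and none of its 4 neighbouring pairs passed the threshold. Prkcb spanned 4.53-fold, with 667 ± 65.4 CPM in DMS, 623 ± 29.3 in PFC, 332 ± 32.6 in NAc, 295 ± 77.4 in Amy and 147 ± 8.81 in VTA. DMS and PFC were not told apart for Prkcb (0.12, FDR 0.184), nor did NAc and Amy pass the threshold (-0.21). The ratio of Prkcb to Prkca in CPM, compared between regions only, was 4.88 in female DMS vehicle libraries, 3.21 in female PFC and 0.898 in female VTA.

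Nrgn had the widest range of the 9 genes, 27.9-fold between means. It averaged 1525 ± 86.7 CPM in PFC, 1022 ± 212 in DMS, 686 ± 113 in Amy, 180.3 ± 47.3 in NAc and 54.7 ± 14.5 in VTA, and each of its 4 neighbouring pairs passed the test. PFC libraries held 1368 to 1647 CPM (median 1520.3) and VTA libraries 39.3 to 77.3 CPM (median 47.1). VTA was lower than PFC by a log2 fold change of -4.82 (SE 0.13). NAc and DMS, both striatal, differed by -2.50, with 128 to 259 CPM in NAc and no overlap with DMS. In bulk tissue, fewer cells of a type and less RNA per cell cannot be told apart, for these region differences and for those with THC.

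A gene was called when its FDR, adjusted over all genes tested, was under 0.05 and its absolute log2 fold change at least 0.4. Regions differ in many genes, so the counts are read against the share of all 17712 genes tested. Against PFC, 8 of the 9 genes were called in DMS (3 higher, 5 lower; 49.2% of all genes called), 5 in NAc (all lower; 45.2%), 8 in Amy (1 higher, 7 lower; 37.4%) and 8 in VTA (1 higher, 7 lower; 55.0%). Against DMS, 7 were called in NAc (2 higher, 5 lower; 30.7%), 8 in Amy (2 higher, 6 lower; 43.0%) and 8 in VTA (2 higher, 6 lower; 57.6%). Amy against NAc gave 6 (3 higher, 3 lower; 24.8%), VTA against NAc 8 (2 higher, 6 lower; 52.1%) and VTA against Amy 8 (1 higher, 7 lower; 43.4%). DESeq2 called the same number in each of the 10 pairs. The median over the 9 genes was -2.20 for VTA against DMS and -2.08 for VTA against PFC, where the medians of all genes were 0.02 and 0.03. The gene called higher in VTA than in PFC was Camk2d (0.60).

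In the wider pathway, 67 further genes in 8 lists, more genes were called lower than higher in VTA against PFC and against DMS. Of all genes, 5277 were called higher and 4470 lower in VTA against PFC, and 5431 and 4763 in VTA against DMS. In VTA against PFC 18 of the 67 were called higher and 41 lower (median -0.63; 55.0% of all genes called), and in VTA against DMS 12 higher and 37 lower (median -0.80; 57.6%). Of the 10 receptors, channels and scaffolds of potentiation, 9 were lower in VTA than in PFC, among them the NMDA receptor subunits Grin2b (-2.43, SE 0.09) and Grin2a (-2.22, SE 0.11). The 12 other calcineurin genes, a list picked after its values were seen, did not follow, with 7 higher and 4 lower in VTA than in PFC (median 0.53).

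Over the 20 group means, the 9 genes fell into different patterns. Camk4 and Ppp3ca moved closely together (Pearson r = 0.993 on log2 CPM, n = 20 groups), as did Camk2b and Ppp3ca (0.982) and Camk4 and Prkcb (0.952). Camk2a was nearest to Nrgn (0.881), and Camk2d ran against Camk2b (-0.685). For Prkca and Camk2b r was -0.00345. These values describe group means that share regions and libraries, and carry no test.

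Among 11945 genes of sufficient level, the 3 most like each gene over the same 20 groups were these, with Pearson r. Camk2a was most like Dlg3 (0.997), a synaptic scaffold of the PSD-95 family, Mapk14 (0.997) and Sorbs2 (0.995). Camk2b was most like Cttnbp2 (0.996) and Ppp1r9a (0.995), which encode proteins of the spine cytoskeleton, and Mgat4b (0.994). Camk2d was nearest to Dgcr2 and Gng4 (both 0.988) and Spindoc (0.985), and Camk2g to Tollip (0.997), Stmn1 and Cbln2 (both 0.993). Camk4 and Ppp3ca had the same nearest gene, the anoctamin Ano3 (0.997 and 0.995), followed by Arl15 (0.997) and Dazl (0.996) for Camk4 and by Stx6 and Cbr4 (both 0.995) for Ppp3ca. Prkca had the weakest matches, the cadherin Cdh11 (0.957), the chemokine Cxcl12 (0.949) and Abcc8 (0.945). Prkcb was nearest to the ephrin receptor Epha7, Inka2 and Gm47155 (each 0.988), and Nrgn to the autophagy gene Becn1 (0.985), Slc1a1 and Gm19410 (both 0.984).

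On the mouse genome (mm10, GENCODE M21) the genes lie mostly apart. Camk2b (chromosome 11, 5969644 to 6066362, minus strand) shares its chromosome with Prkca (107933387 to 108343928, minus strand), and Camk2d (chromosome 3, 126596302 to 126846326, plus strand) with Ppp3ca (136670124 to 136937727, plus strand). Prkcb lies on chromosome 7 (122288751 to 122634402, plus strand), Nrgn on chromosome 9 (37544492 to 37552904, minus strand) and Camk2g on chromosome 14 (20734875 to 20794088, minus strand), while Camk2a and Camk4 share a further chromosome.

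The promoter table used, drawn from RefSeq (GRCm38.p6), held 5 of the 9 genes, as 300 bases from 250 before to 50 after the annotated start. Camk2a, Camk2g, Camk4 and Ppp3ca were not in it. The windows were rich in G and C, from 77.3% in Camk2b, 75.3% in Prkca and 70.3% in Camk2d to 65.3% in Prkcb and 59.3% in Nrgn, where the median of 32851 promoters was 52.7%. Both strands were searched for the GC box GGGCGG, the E boxes CAGCTG and CACGTG, the octamer ATGCAAAT and the cyclic AMP response element TGACGTCA. The GC box was present in all 5 windows and in 35.7% of all promoters. Prkcb differed from the other 4: it held 4 copies of CAGCTG, which were absent from the other windows (16.3% of all promoters hold at least 1 copy, 0.0274% at least 4), and the octamer, held by 1.74% of all promoters. CACGTG (7.15% of promoters) and TGACGTCA (1.79%) were in none of the 5. The stretches show the motifs in capitals, 5′ to 3′ on the strand of the gene. In Nrgn the capitals are the GC box read on the other strand (CCGCCC), and in Camk2b neighbouring copies run together. Whether the motifs go with the regional patterns was not tested. A match is a description of letters, not a site.
Prkcb octamer, chr7:122289044-122289073 (+): gcctgggtttcATGCAAATgagggaggcgg
Prkcb CAGCTG, chr7:122289011-122289040 (+): cgatatgtaaagCAGCTGgcggctctgggc
Prkca GC box, chr11:108343941-108343970 (-): ggcatgcgcagtGGGCGGcgccgctccggg
Camk2b GC boxes, chr11:6065781-6065810 (-): gcaagGGGCGGcGGGCGGGGCGGgcgcggc
Camk2d GC box, chr3:126596921-126596950 (+): gggggcttcgctGGGCGGggagaggaggga
Nrgn GC box, chr9:37552771-37552800 (-): ctccagttctccCCGCCCaccctgcagaaa

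THC was compared with vehicle in each region and sex, the question being whether the exposure left a change in these genes. In female Amy, 2 genes, Camk2a and Prkcb, were called higher after THC. In the other 9 comparisons edgeR called 0 of the 9 genes and DESeq2 called 0, and the log2 fold changes with all libraries lay between -0.40 and 0.31.

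**Figure D3:**
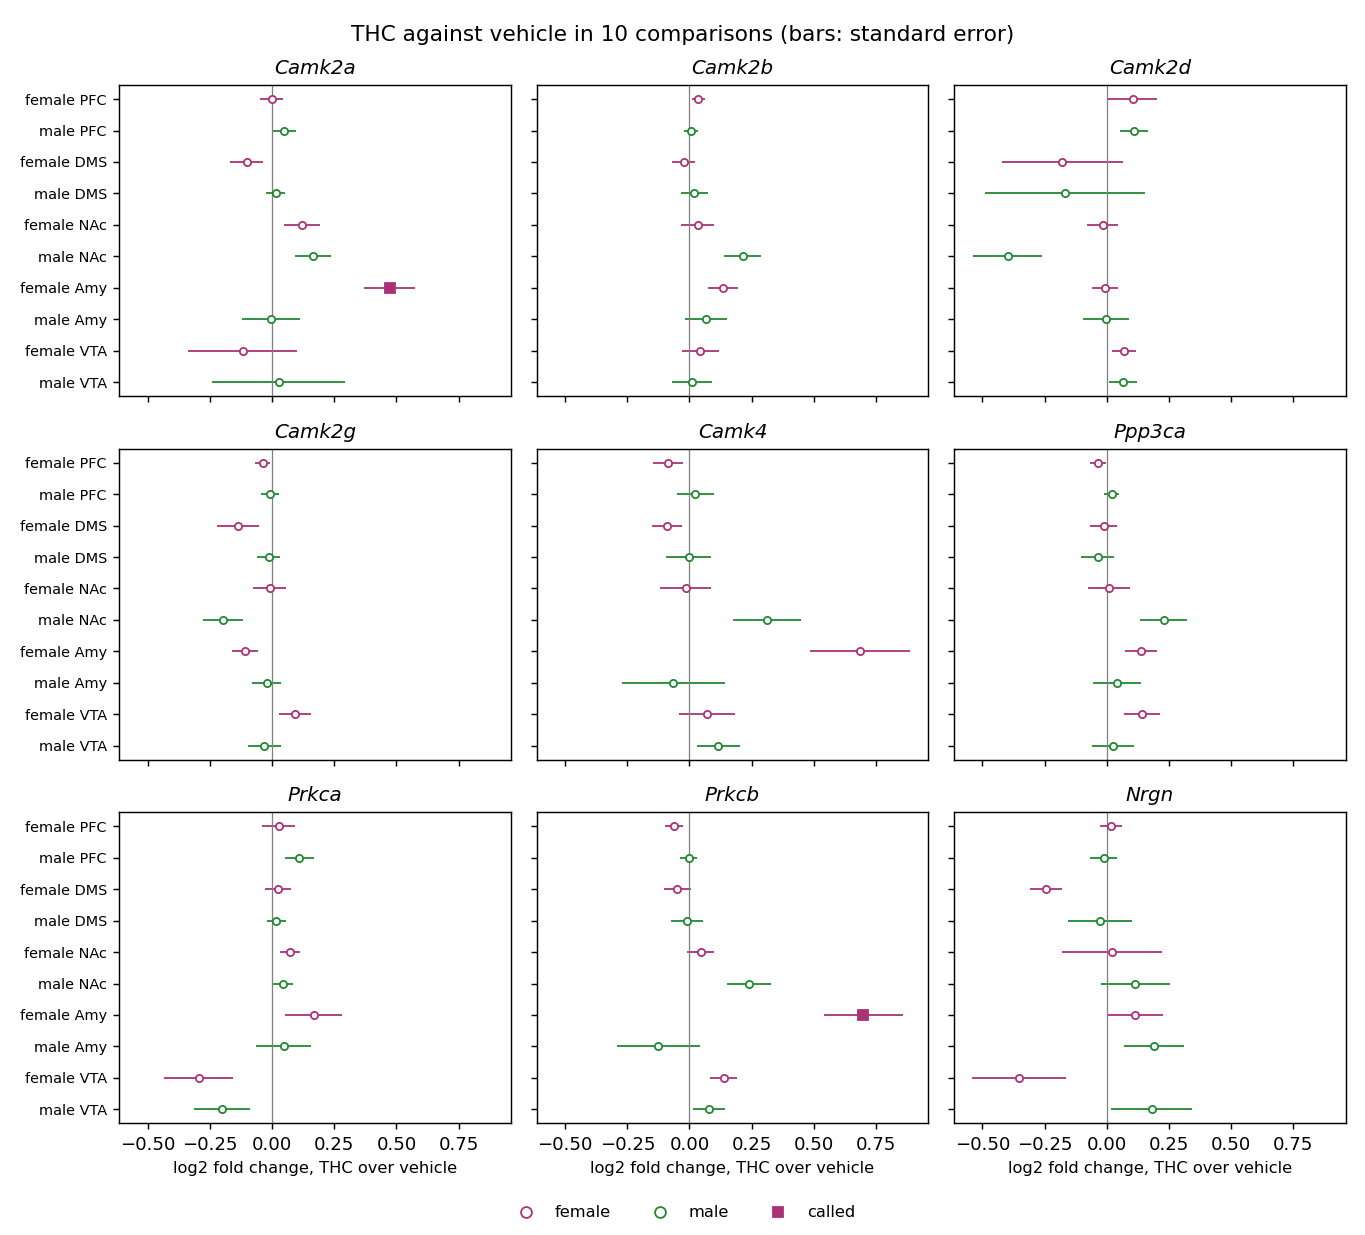
Log2 fold change of THC over vehicle for each of the 9 genes in the 10 comparisons of region and sex, with bars of 1 standard error (n = 6 against 6, or 6 against 5 in male VTA); filled squares mark calls. Camk2a (0.47) and Prkcb (0.70) in female Amy are the only filled squares.

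Of all genes tested by edgeR, 0% were called in female PFC, male PFC, male DMS, female NAc, male NAc, male Amy, female VTA and male VTA, and 0.0127% in female DMS, so counts at an unadjusted p under 0.05 are given for these. In PFC, 0 of the 9 genes reached it in females (5.84% of all genes) and 0 in males (4.07%), and DESeq2 gave 0 and 0. In DMS it was reached by 1 gene in females (8.90%) and by 0 in males (1.93%), with 1 and 0 by DESeq2. In NAc it was reached by 0 genes in females (4.61%) and by 7 in males (16.7%), the same numbers as by DESeq2. In VTA the count was 1 in females (9.02%) and 0 in males (5.92%), against 2 and 0 by DESeq2, and in male Amy it was 0 (1.84%), also 0 by DESeq2. These shares are by edgeR, and the DESeq2 counts have no share of all genes beside them.

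Female Amy had the only calls. Camk2a held 1005 to 1675 CPM in the vehicle libraries (median 1449.6) and 1722 to 2165 CPM in the THC libraries (median 2013), and rose by 0.47 on the log2 scale (SE 0.10, FDR 0.0304, n = 6 against 6). Prkcb held 146 to 331 CPM (median 274) and 351 to 488 CPM (median 434), and rose by 0.70 (SE 0.16, FDR 0.0367). For both genes all 6 THC libraries were above all 6 vehicle libraries. Camk4 also did not overlap, with 14.9 to 49.7 CPM in vehicle (median 40.3) and 51.8 to 66.2 CPM in THC (median 60.6), but edgeR did not call it (0.69, SE 0.20, FDR 0.0856). DESeq2 called all 3 (FDR 0.00101 for Camk2a, 0.00112 for Prkcb and 0.0158 for Camk4), with 3.27% of all genes called. Here and below, the share of all genes whose THC and vehicle libraries separate in this way was not counted.

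The 2 calls of 9 stand beside 1.57% of all 17003 genes tested (186 up and 81 down), and 4 of the 9 genes were at an unadjusted p under 0.05 beside 21.9% of all genes. The median log2 fold change was 0.14 over the 9 genes and -0.01 over all genes. The study's own pathway table had picked Camk2a, Prkcb and Camk4 from these same libraries, so their rise is not independent evidence. The other genes did not pass: Camk2b (0.13, FDR 0.217) had 5 of 6 THC libraries above all vehicle libraries and Ppp3ca (0.14, FDR 0.229) had 3, while Camk2g (-0.11) had 4 below all vehicle libraries. Prkca (0.17), Nrgn (0.11) and Camk2d (-0.01) overlapped, and without the filter on low counts Camk2d was at 0.00. With 1 library left out in turn Prkca ran from 0.074 to 0.218 and Nrgn from 0.041 to 0.233, neither of them called.

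The subunit mix moved with Camk2a. By counts, Camk2a made up 46.3 to 57.1% of the 4 CaMKII genes in female Amy vehicle libraries (median 55.1%) and 58.6 to 62.9% in THC libraries (median 61.4%), without overlap. The ratio of Camk2a to Camk2b was 1.498 to 2.36 (median 2.19) in vehicle and 2.40 to 2.83 (median 2.68) in THC libraries. The lowest vehicle share and ratio were both in vehicle replicate 6. Share and ratio use the Camk2a values given above, so they are not a result separate from the rise of Camk2a. In males the mean Camk2a share was 55.4% in vehicle and 54.8% in THC libraries.

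Each call was lost in 8 of the 12 fits that left 1 library out. The Camk2a call ended without vehicle replicate 1 (0.48, FDR 0.0539), 2 (0.45, FDR 0.0543), 3 (0.48, FDR 0.0732) or 6 (0.39, FDR 0.00584, under the fold threshold), and without THC replicate 1 (0.45, FDR 0.0853), 2 (0.45, FDR 0.0747), 4 (0.44, FDR 0.0888) or 6 (0.47, FDR 0.0552). The Prkcb call ended without vehicle replicate 1 (0.72, FDR 0.0582), 3 (0.67, FDR 0.0913) or 5 (0.69, FDR 0.0608), and without THC replicate 1 (0.68, FDR 0.0937), 2 (0.67, FDR 0.0862), 3 (0.70, FDR 0.0592), 4 (0.65, FDR 0.100) or 6 (0.73, FDR 0.0552). The direction stayed the same in all 12 fits for Camk2a (0.39 to 0.52), Prkcb (0.58 to 0.77) and Camk4 (0.52 to 0.77), and Camk4 was called once, without vehicle replicate 6 (0.52, FDR 0.00243). Without any filter on low counts the Prkcb call also ended (0.71, FDR 0.0839). The female THC library whose sex genes went against its label is THC replicate 6, so without it 0 of the 9 genes were called by edgeR, with 4 at an unadjusted p under 0.05 and 159 genes called in all. The number of all genes called, 267 with every library, was 129 without vehicle replicate 1, 60 without vehicle replicate 3, and 58, 74 and 56 without THC replicates 1, 2 and 4, and 191 to 289 without any 1 of the remaining 6 libraries.

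Vehicle replicate 6 was the lowest female Amy library for Camk2a (1005 CPM), Camk4 (14.9), Prkcb (146) and Prkca (64.0) and the highest vehicle library for Nrgn (976) and Ppp3ca (961). It also had 236 CPM of Xist, where the other female Amy vehicle libraries had 494 to 555. Its choroid plexus markers summed to 1151 CPM, beside 17.6 to 891 CPM in those libraries and up to 3582 CPM in female Amy THC libraries. What sets it apart was not tested.

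**Figure D4:**
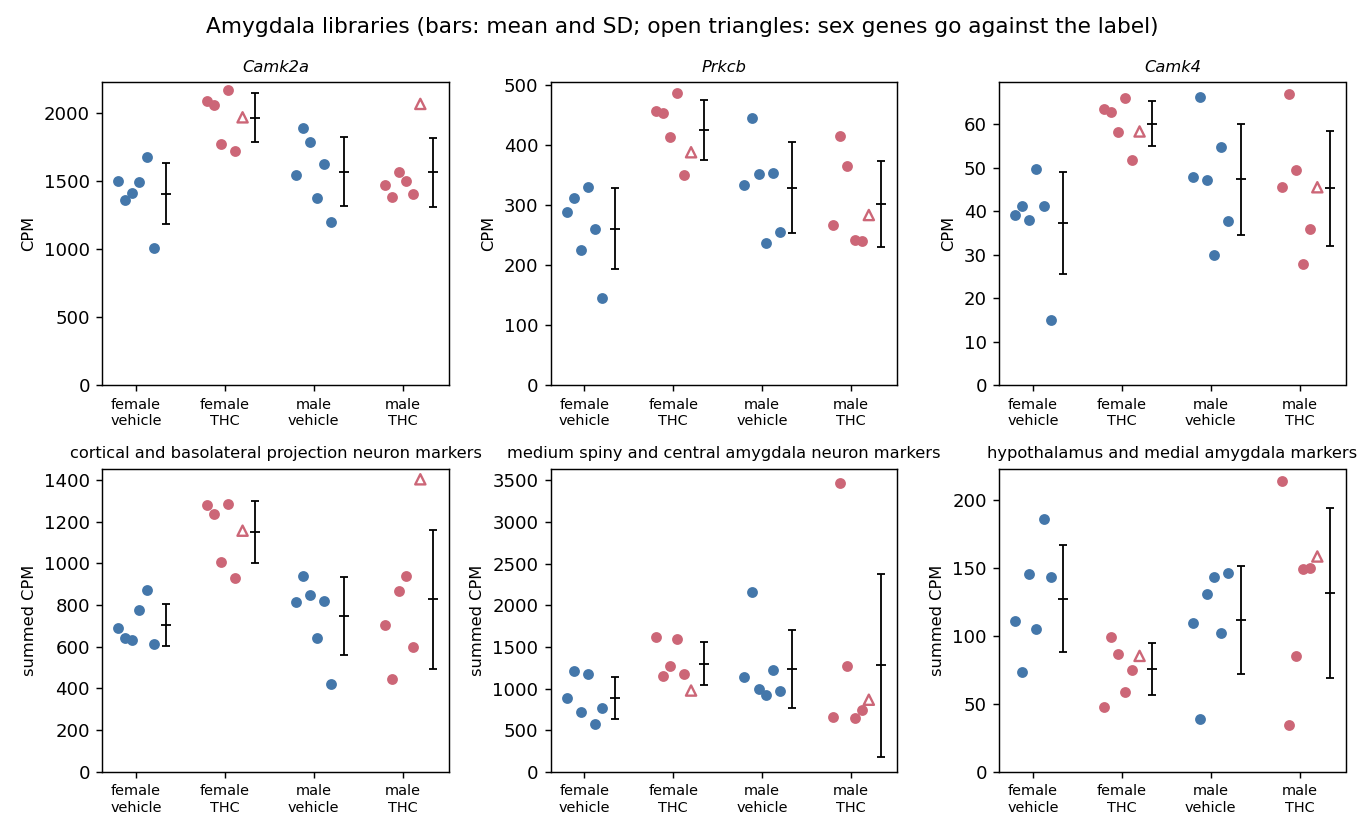
CPM of Camk2a, Prkcb and Camk4, and summed CPM of 3 neuron marker lists, in each library of the 4 Amy groups, with the mean and standard deviation; open triangles are the female and the male THC library whose sex genes go against the label. All 6 female THC libraries lie above all 6 female vehicle libraries for Camk2a, Prkcb, Camk4 and the cortical and basolateral markers. The share of all genes that separate in this way was not counted.

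Markers of neuron types moved in the same female Amy libraries. The 10 cortical and basolateral projection neuron markers, led by Slc17a7, summed to 611 to 874 CPM in vehicle libraries (median 665) and 931 to 1283 CPM in THC libraries (median 1196), and 3 of 10 were called higher (Slc17a7 0.76, Tbr1 0.94, Neurod6 0.83). None of the 10 was at 0 in either group. The 12 hypothalamic and medial amygdala markers, led by Slc17a6, summed to 73.1 to 186 CPM in vehicle (median 127) and 48.0 to 99.5 CPM in THC (median 80.2). Of the 8 that could be tested, 2 were called lower (Irs4 -0.79, Calcr -1.09), with Hmx2 at 0 in all libraries of both groups and Hmx3 in those of the vehicle group. The 11 medium spiny and central amygdala markers, led by Penk, summed to 569 to 1211 CPM in vehicle (median 825) and 976 to 1615 CPM in THC (median 1220.5), none at 0, with 0 called by edgeR and 10 at an unadjusted p under 0.05. Their part in the rise of Camk2a and Prkcb was not tested.

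The other 9 marker lists held 3 calls. Of the dopaminergic markers, Nr4a2 was called higher (0.59) and Th lower (-0.64) of 7 tested, and of 7 GABAergic interneuron markers Lhx6 was called lower (-0.48). In the lists for oligodendrocytes (8 genes, median -0.41), astrocytes (8, -0.11), microglia (8, -0.10), endothelium (6, -0.11), thalamus (4, -0.15), hippocampal granule and CA1 neurons (5, -0.04) and choroid plexus (4 tested, 1.28), edgeR called 0 genes, with 2, 3, 2, 1, 0, 0 and 0 at an unadjusted p under 0.05. The choroid plexus sum, mostly Ttr, ran from 17.6 to 1151 CPM in vehicle and 18.0 to 3582 CPM in THC libraries.

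The wider pathway in female Amy had 4 of 67 genes called higher and 2 lower, with a median of 0.12, beside 1.57% of all genes called. Camkk2, the kinase that activates Camk4, held 89.6 to 121 CPM in vehicle (median 109) and 136 to 160.0 CPM in THC (median 147), without overlap (0.46, SE 0.07, FDR 0.0103). Adcy1, a calmodulin-stimulated adenylyl cyclase (0.74, FDR 0.0319), and Itpr1, the calcium release channel of the endoplasmic reticulum (0.54, FDR 0.0462), were also higher in all 6 THC libraries. Pnck, a CaM kinase I relative (-0.50, FDR 0.0317), and Adcy8, another calmodulin-stimulated cyclase (-0.44, FDR 0.0373), were called lower.

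For 7 of the 8 lists, the calls in female Amy were these: 1 up and 1 down of 7 other CaM kinases (median 0.20) and 2 up and 1 down of 9 genes for second messengers and protein phosphatase 1 (0.09). edgeR called 0 of 10 receptors, channels and scaffolds (median 0.20, 5 at an unadjusted p under 0.05, reached by 21.9% of all genes), 0 of 12 other calcineurin genes (0.10, 4), 0 of 6 calmodulin and small IQ proteins (0.04, 2), 0 of 2 CaMKII inhibitors (-0.16, 1) and 0 of 14 genes of the MAP kinase and CREB arm (0.05, 5). The NMDA receptor subunit Grin2a (0.62, FDR 0.0800) and the CaMKII inhibitor Camk2n2 (-0.45, FDR 0.0839) came near the threshold, and were chosen after their values were seen. In the other 9 THC comparisons edgeR called 0 of the pathway genes.

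Male Amy had no such difference. Camk2a held 1197 to 1886 CPM in vehicle (median 1583) and 1377 to 2064 CPM in THC (median 1481), Prkcb 236 to 446 CPM (median 343.5) and 240.0 to 415 CPM (median 275), and the groups overlapped for all 9 genes. The log2 fold changes were -0.00 for Camk2a, -0.12 for Prkcb and -0.07 for Camk4, and -0.10, -0.10 and -0.06 without THC replicate 6, the library with a high Xist level, which had the highest male Camk2a value (2064 CPM) and cortical marker sum (1402 CPM). In THC replicate 2, with 3471 CPM of medium spiny and central amygdala markers, Prkcb (415 CPM), Camk4 (67.1) and Ppp3ca (1143) were the highest of the male THC group.

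The difference between the sexes in the THC effect was tested as an interaction. In Amy edgeR called 0 of the 9 genes (0.00590% of all genes), with 3 at an unadjusted p under 0.05 (15.8%), and DESeq2 called 0, with 3. The percentages in this paragraph are by edgeR, and none is given for DESeq2. The male effect minus the female effect was -0.48 for Camk2a (SE 0.16, FDR 0.256), -0.82 for Prkcb (SE 0.25, FDR 0.235) and -0.75 for Camk4 (SE 0.31, FDR 0.272), so the female rise was not shown to differ from the male effect. Without both libraries that went against their label these were -0.57, -0.83 and -0.76 (FDR 0.196, 0.196 and 0.265), without the female one alone -0.48, -0.85 and -0.76, and without the male one alone -0.57, -0.81 and -0.75, with 0 of the 9 called each time by edgeR and 3 at an unadjusted p under 0.05. In the other regions edgeR and DESeq2 called 0 of the 9 genes, and 0% of all genes were called by edgeR: at an unadjusted p under 0.05 were 0 genes in PFC (5.87%), 0 in DMS (5.90%), 1 in NAc (11.0%) and 0 in VTA (6.16%), and by DESeq2 0, 0, 1 and 1.

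Male NAc had the most genes at an unadjusted p under 0.05, though none was called. Camk2b was at 821 to 1067 CPM in vehicle (median 1016) and 993 to 1332 CPM in THC (median 1156; log2 fold change 0.21, SE 0.07), Ppp3ca at 898 to 1253 CPM (median 1096) and 1084 to 1546 CPM (median 1298; 0.23, SE 0.09), and Prkcb at 263 to 358 CPM (median 327) and 304 to 440 CPM (median 370.1; 0.24, SE 0.09). Camk2a (0.17, SE 0.07) and Camk4 (0.31, SE 0.14) had the same sign. Camk2d had the opposite sign, with 96.1 to 121 CPM in vehicle (median 100.8) and 52.9 to 99.1 CPM in THC (median 82.1; -0.40, SE 0.14), as did Camk2g (-0.20, SE 0.08). The groups overlapped for each gene: for Camk2d 4 THC libraries lay under the whole vehicle group, and for Camk2b 4 lay above it. The FDR of these 7 genes was 0.216 to 0.283, their share at that p, 7 of 9, stands beside 16.7% of all genes, and the median of the 9 genes was 0.17 beside -0.00 for all genes.

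**Figure D5:**
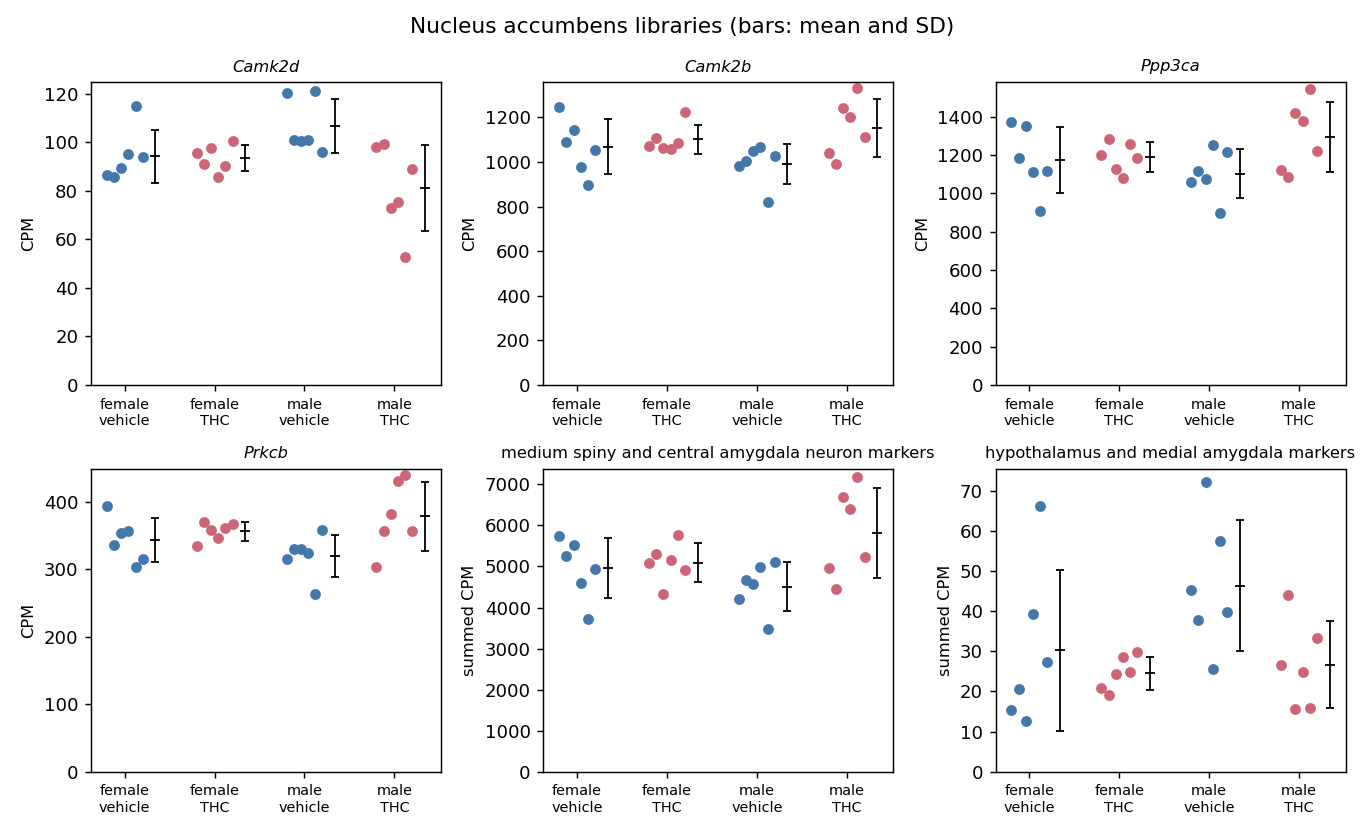
CPM of Camk2d, Camk2b, Ppp3ca and Prkcb, and summed CPM of the medium spiny and the hypothalamic marker lists, in each library of the 4 NAc groups, with the mean and standard deviation. In males 4 of 6 THC libraries lie below all vehicle libraries for Camk2d and 4 above them for Camk2b and for the medium spiny sum.

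Marker sums of the same male NAc libraries, in which edgeR called 0 genes of any list, are given beside these values. The 11 medium spiny markers, led by Ppp1r1b, summed to 3476 to 5107 CPM in vehicle (median 4628) and 4443 to 7186 CPM in THC (median 5810.3), with 9 of 11 at an unadjusted p under 0.05, 0 called by edgeR and none at 0. The cortical markers, led by Cux2, summed to 75.4 to 171 CPM in vehicle and 57.3 to 93.7 CPM in THC, 2 of the 5 tested at that p and 0 called. The hypothalamic markers summed to 25.6 to 72.3 CPM and 15.5 to 44.1 CPM, led by Irs4 in vehicle and Calcr in THC, with 3 of the 4 tested at that p and 0 called, and with Sim1 and Hmx3 at 0 in all THC libraries. In the other 9 lists edgeR called 0 genes, and at that p were 1 of 3 hippocampal, 3 of 7 dopaminergic, 2 of 8 astrocyte and 1 of 3 choroid plexus markers tested and 0 in the lists for thalamus, GABAergic interneurons, oligodendrocytes, microglia and endothelium. The mean sum in THC was 0.725 times that in vehicle for the hippocampal list (4 THC libraries below all vehicle libraries), 0.807 times for the dopaminergic (3) and 0.872 times for the oligodendrocyte list (3), and 0.891 to 1.006 times for the other 6. The part of these markers in the values of the 9 genes was not tested. The THC library with the lowest Camk2d (52.9 CPM, replicate 5) had the highest medium spiny sum (7186 CPM) and the highest Camk2b, Ppp3ca, Camk4 and Prkcb of its group, and without it Camk2d was at -0.30. Male vehicle replicate 5 had the lowest medium spiny sum of its group (3476 CPM), with the lowest Camk2a, Camk2b, Ppp3ca, Camk4 and Prkcb. It also had the highest Camk2d and Camk2g of that group. Without this vehicle library Camk2a was at 0.12, Camk2b at 0.17 and Camk2g at -0.14. In females the 9 genes lay between -0.02 and 0.12, and the NAc interaction was -0.38 for Camk2d (SE 0.16, FDR 0.410).

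In female DMS and in female VTA edgeR had 1 gene each at an unadjusted p under 0.05, and none was called. Nrgn in female DMS held 1041 to 1304 CPM in vehicle (median 1165) and 877 to 1095 CPM in THC (median 989.6; -0.24, SE 0.07, FDR 0.264), with 3 THC libraries below all vehicle libraries and none above the vehicle median. In the same DMS libraries the mean marker sum in THC over vehicle was 0.847 for the dopaminergic list (4 THC libraries below all vehicle libraries). It was 0.932 for thalamus (4 below), 0.917 for the hippocampal and 0.916 for the oligodendrocyte list (2 below each). It was 0.417 for the cortical, 0.616 for the choroid plexus, 0.773 for the hypothalamic, 0.955 for the medium spiny and 1.04 for the GABAergic list. Vehicle replicate 1 had the highest cortical (316 CPM), choroid plexus (86.9) and hypothalamic sum (5.11) of its group. The cortical medians were 28.8 CPM in vehicle and 30.2 CPM in THC. Those of the choroid plexus list were 15.9 and 16.9 CPM, and those of the hypothalamic list 1.10 and 1.22 CPM. The part of these markers in the Nrgn value was not tested. In female VTA, Prkcb held 138 to 157 CPM in vehicle (median 141) and 145 to 181 CPM in THC (median 158, log2 fold change 0.14, FDR 0.512), and Nrgn (-0.35) and Prkca (-0.30) had larger but more variable differences. For Prkca 4 THC libraries lay below all vehicle libraries, and for Nrgn 3. In these VTA libraries edgeR called 0 markers, with 6 of 8 microglia, 3 of 8 astrocyte, 1 of 10 dopaminergic and 1 of 7 hypothalamic markers at an unadjusted p under 0.05, and the mean sum in THC was 0.798 times that in vehicle for microglia (5 THC libraries below all vehicle libraries), 0.881 times for astrocytes (4 below), 0.788 times for the dopaminergic list (3 below) and 1.32 times for the hypothalamic list (3 above). It was 1.29 times for thalamus (3 above, 1 below) and 1.15 times for the hippocampal list (2 above). The cortical list was at 0.820 times (3 below) and endothelium at 0.979 times (4 below, 1 above). The part of these markers in the VTA values was not tested. In PFC, the region with the highest Camk2a, the 9 genes lay between -0.09 and 0.10 in females and between -0.01 and 0.11 in males.

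Sex itself was tested as male against female over both treatments. edgeR and DESeq2 called 0 of the 9 genes in every region, beside 0.240% of all genes in PFC, 2.64% in DMS, 0.243% in NAc, 0.0120% in Amy and 0.109% in VTA by edgeR. At an unadjusted p under 0.05 were 1 in PFC (16.3%), 3 in DMS (27.8%), 2 in NAc (16.6%), 1 in Amy (6.00%) and 0 in VTA (7.16%), and by DESeq2 1, 4, 2, 1 and 0. No share of all genes by DESeq2 is given. Nrgn in DMS came nearest: females had 1041 to 1304 CPM in vehicle and 877 to 1095 CPM in THC libraries, males 581 to 1053 CPM and 774 to 929 CPM, and the male level was lower by a log2 fold change of -0.30 (SE 0.08, FDR 0.0157), under the fold threshold. The medium spiny marker sum in DMS averaged 13155 CPM in vehicle and 12560 CPM in THC libraries of females and 11328 and 11392 CPM in those of males, with 0 of the 11 markers called by edgeR and 8 at an unadjusted p under 0.05, and its part in the Nrgn value was not tested. Without either or both of the libraries that went against their label, the Amy count was 0 called by edgeR, with 1 at an unadjusted p under 0.05 without either and 0 without both. Of the 67 pathway genes, only the calcineurin target Nfatc4 in DMS was called in a sex comparison (0.63, FDR 0.0300).

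Several libraries stood apart in gene and marker values together. Female DMS vehicle replicate 1 had 1776 CPM of Camk2a, 48.5 of Camk2d and 120.0 of Camk2g, the highest of its group, and 316 CPM of cortical markers where the median of DMS libraries was 30.2. Male DMS vehicle replicate 5 had the highest DMS value of Camk2d (58.98 CPM) and the lowest of Ppp3ca (2250.1), Camk4 (95.4), Prkcb (507.5) and Nrgn (581), with the lowest DMS sum of medium spiny markers (8275 CPM). Male VTA vehicle replicate 3, the shallowest library with 3.09 M counts, had 256 CPM of Camk2a where the other 4 had 97.9 to 108, with a dopaminergic marker sum of 2253 CPM beside a VTA median of 4571. Without it the THC effect on Camk2a in male VTA was 0.37 (SE 0.10, FDR 0.563) in place of 0.03, and the VTA interaction of Camk2a was 0.49 (FDR 0.696), neither called. The paper's methods state that a male VTA sample was dropped as an outlier, without naming it. Here all male VTA libraries were kept in the main tests. Female VTA THC replicate 1 had the lowest dopaminergic sum (1919 CPM) with the highest Camk2g (314 CPM) and Prkcb (181) and the lowest Prkca (89.1) of its group. The part of the tissue mix in these values was not tested.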

How the data were processed

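The authors made polyA-enriched, stranded, paired-end libraries, trimmed reads with cutadapt 2.9, aligned them to mm10 with STAR 2.7.3a and deposited expected counts per gene from RSEM 1.3.1; the annotation release is not stated. The expected counts were rounded to whole numbers for testing. Genes were filtered with filterByExpr and scaled by TMM, and edgeR 4.0.16 quasi-likelihood tests (limma 3.58.1, R 4.3.3) were run on all genes, separately for THC in each region and sex, for sex and for the sex by THC interaction in each region, and between regions over the 59 vehicle libraries. A call needs a Benjamini-Hochberg FDR under 0.05 together with a log2 fold change of 0.4 or more in size. Log2 CPM for the likeness of patterns used a prior count of 2, and genes of mean CPM of at least 5. Lengths came from GENCODE M21 and covered 96.4% of genes. The test steps were also run on simulated counts with planted changes. Those changes were larger than the called changes in female Amy, so that run does not bear on these calls.

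Alternatives were DESeq2 1.42.0, 1 fit for all 4 groups of a region, no filter, DESeq2 size factors in edgeR, counts thinned to the lowest total, each library left out in turn, the 2 libraries that went against their labelled sex left out, library totals as the only scaling and all 119 libraries for regions. No paired analysis was made because the labels carry no mouse identity. The 9 genes, the 8 pathway lists and the 12 marker lists were chosen with earlier results of these data known. Named genes are the 9, the 3 genes most like each, pathway genes called in a THC, interaction or sex comparison, and the region examples of largest change in 1 list. Marker genes, and the pathway genes Grin2a and Camk2n2 in female Amy, were named after their values were seen. No column of the count tables was left unused. Figures were drawn with matplotlib 3.10.9. Some pathway genes, 1 of them called in female Amy, and the calls of 1 pathway list there are counted in totals and are not reported here.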

Additional observations from a re-analysis of the deposited data

Results flagged for a closer look

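In 17 of 180 groups (9 genes in 20 groups) the highest or lowest library lay far from the rest, measured as its gap to the nearest library over the range of the group. Chance alone gives about 1 in 20 groups, and no cause was tested. Female DMS vehicle replicate 1 was far above the others for Camk2a (ratio 0.782), Camk2d (0.755) and Camk2g (0.634). Female NAc vehicle replicate 5 was far above for Camk2d (0.677) and Camk2g (0.656). Male VTA vehicle replicate 3, the shallowest library, was far above for Camk2a (0.939), and male Amy THC replicate 6, whose sex genes go against its label, was also high for Camk2a (0.730). Female VTA THC replicate 1 was high for Camk2g (0.789), and female Amy vehicle replicate 6 was low for Camk4 (0.661).

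For Camk2b, male PFC vehicle replicate 5 was low (0.831), female NAc THC replicate 6 high (0.701) and male NAc vehicle replicate 5 low (0.649). Female NAc THC replicate 2 was high for Camk4 (0.663). Female PFC vehicle replicate 1 was high for Ppp3ca (0.634) and replicate 5 of that group for Prkca (0.641). Male VTA THC replicate 2 was low for Prkcb (0.674), and male Amy vehicle replicate 6 low for Nrgn (0.695).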

How the results depend on the processing

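Of 90 THC values of the 9 genes, 39 changed sign under at least 1 alternative, each with a log2 fold change of at most 0.18 in size, and of 90 region values 1 did. That value, Camk2a in NAc against DMS (-0.00), was 0.011 by DESeq2 and with its size factors, 0.0031 with no filter, 0.10 with all 119 libraries and 0.11 with library totals only. Camk2d in female Amy (-0.01) was 0.0020 with no filter. With no filter 1 of the 9 genes was called in female Amy, and Prkcb (0.71) was not, a test over 31194 genes. With 1 library left out in turn, female Amy gave 0 to 2 calls, Camk2a 0.39 to 0.52, Prkcb 0.58 to 0.77 and Camk2d -0.033 to 0.010, and male Amy Camk2a -0.10 to 0.055 and Camk4 -0.21 to 0.056. Camk4 in female Amy was called by DESeq2 (0.68). Between regions Camk2g in VTA against PFC lost its call with library totals only (-0.31), and Prkca gained 1 in VTA against PFC (-0.40, all libraries) and VTA against NAc (0.40, no filter). The cause of these changes was not tested.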
